A study of Homo sapiens with 18 samples.

Results

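The proteasome is described here through 42 genes of 3 human multiple myeloma cell lines. They are the genes of the count table whose symbol is PSMA, PSMB, PSMC, PSMD, PSME or PSMF followed by a number and whose mean over all libraries was at least 1 CPM (CPM are counts scaled to the effective size of the library). The rule reads names and the mean level. Of 28395 genes in the table, 44 had such a symbol. PSMA8, a germ cell subunit, had 2 counts in all libraries together (a mean of 0.00595 CPM) and PSMB11, the thymus subunit, had 0, so both stay out. The lowest gene inside the limit was PSMC1 at 5.14 CPM. All 42 also passed the filter on low counts, which left 14571 genes to test.

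H929, MM1S and OPM2 are established lines grown from malignant plasma cells. In each, an inducible CRISPR-Cas9 knockout of IKZF1 (Ikaros) has an empty vector as its control, and in OPM2 a knockout of IKZF3 (Aiolos) shares that control; all of these received doxycycline at 1 µg/mL, which switches on the guide RNA. OPM2 cells were in addition given lenalidomide at 10 µM or left untreated, both without doxycycline. Treated cells were cultured for 72 h, and the labels give no time for the untreated ones. Live cells were sorted by light scatter, and each of the 9 groups has 2 libraries. The sources used here do not say whether the 2 are separate cultures or clones, so p-values measure the spread between these libraries, which may be technical. The 2 knockout libraries of a group are called a and b.

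The proteasome degrades proteins tagged with ubiquitin. Its 20S core is a barrel of outer alpha rings and inner beta rings, and the beta rings carry the cutting subunits PSMB5 (chymotrypsin-like), PSMB6 (caspase-like) and PSMB7 (trypsin-like). The 19S cap, made of PSMC ATPases and PSMD subunits, binds and unfolds the tagged protein. Interferon induces the alternative cutting subunits PSMB8, PSMB9 and PSMB10, which replace PSMB5, PSMB6 and PSMB7 in newly built immunoproteasomes, and the PA28 activator genes PSME1 and PSME2; the peptides are carried by the TAP transporter to MHC class I. Plasma cells secrete large amounts of antibody and lean on the proteasome to clear misfolded protein, and proteasome inhibitors and lenalidomide are both used against myeloma. Lenalidomide directs IKZF1 and IKZF3 to cereblon, so that the proteasome itself degrades them.

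Promoters are shown for the 5 interferon-inducible genes and for PSMA2, an alpha ring gene that was called with PSMB8 and PSMB9 in H929. Each is the RefSeq sequence of GRCh38.p14, written 5′ to 3′ on the strand of the gene, from 120 bases before the annotated start to 20 bases from it. Capitals mark matches on either strand to the core of the interferon-stimulated response element (GAAA, any 2 bases, GAAA) and to TTCNNNGAA, the letters of a STAT site.
PSMB8 (chr6:32844028-32844167, minus strand): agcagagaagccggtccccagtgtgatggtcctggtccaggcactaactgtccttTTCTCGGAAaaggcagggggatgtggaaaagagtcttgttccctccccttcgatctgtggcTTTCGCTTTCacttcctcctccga
PSMB9 (chr6:32854072-32854211, plus strand): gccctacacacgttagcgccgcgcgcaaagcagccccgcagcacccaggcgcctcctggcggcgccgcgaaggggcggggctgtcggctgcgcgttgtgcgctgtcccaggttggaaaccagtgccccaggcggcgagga
PSMB10 (chr16:67936831-67936970, minus strand): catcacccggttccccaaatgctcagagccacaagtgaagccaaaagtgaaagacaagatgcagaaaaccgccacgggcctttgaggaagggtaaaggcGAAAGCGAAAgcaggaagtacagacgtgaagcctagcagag
PSME1 (chr14:24136074-24136213, plus strand): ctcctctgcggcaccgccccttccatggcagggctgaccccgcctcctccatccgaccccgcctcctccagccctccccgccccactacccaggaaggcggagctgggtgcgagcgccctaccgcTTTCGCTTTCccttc
PSME2 (chr14:24146591-24146730, minus strand): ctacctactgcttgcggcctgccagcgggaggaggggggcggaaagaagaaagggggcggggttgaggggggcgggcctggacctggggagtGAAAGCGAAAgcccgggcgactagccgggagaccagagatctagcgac
PSMA2 (chr7:42932155-42932294, minus strand): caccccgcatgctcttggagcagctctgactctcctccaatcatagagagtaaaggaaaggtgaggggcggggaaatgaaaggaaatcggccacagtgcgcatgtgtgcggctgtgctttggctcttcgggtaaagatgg

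PSMB8, PSMB10, PSME1 and PSME2 carry the first motif close to the start, with its first base between -28 and 5 from it, and PSMB8 carries both. RefSeq gives PSMB8 a second start further upstream, and its window (chr6:32844630-32844929) holds neither motif. The printed stretch of PSMB9 has neither. Over the full windows (250 bases before to 50 from the start), the interferon motif stood in 6 of the 37 members that have a window (also in PSMB4 and PSMA4), against 4.38% of all 27305 genes with a window (a gene counts where any of its windows holds the motif). TTCNNNGAA stood in 7 of 37 (PSMB8, PSMA2, PSMB5, PSMD2, PSMD3, PSME3 and PSMC4), against 9.38% of genes; the match in PSMA2 lies at -135 from the start, outside the stretch printed. GGGAA, the Ikaros core, stood in 29 of 37 and in 68.6% of genes. Of the letters of the antioxidant response element, which the proteasome regulators NFE2L1 and NFE2L2 bind, the long form stood in 0 of 37 (0.194% of genes) and its core, TGANNNNGC, in 24 of 37 (47.1%). A match is a string of letters, not a measured site. PSMA7, PSMB1, PSMB6, PSMB7 and PSMD4 had no window by symbol.

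Library totals ran from 11.8 to 24.19 M counts, and the 42 genes took 0.585 to 0.947% of them. The plasma cell markers summed to 7689 to 21220 CPM; mature B cell markers summed to at most 1.54 CPM with MS4A1 (CD20) at 0 in all 18 libraries, and the T and NK, myeloid, erythroid and stromal or epithelial lists each to at most 43.4 CPM. IKZF1 was not called lower in any knockout of it (127.9 and 120.1 CPM in H929 empty vector and 124 and 188 after knockout), and IKZF3 stood at 44.0 and 50.3 CPM in OPM2 empty vector and 69.3 and 66.6 after its own knockout. Counts over a whole transcript do not show whether a cut gene makes protein, so they could not check the labels. In OPM2 empty vector, replicate 1 stood apart: 1638 genes differed over 2-fold between its 2 libraries, where the other groups had 258 to 980. Of the 10 OPM2 libraries replicate 1 had the highest level of 33 of the 42 genes. The same count over all genes is not given, so it does not set the 42 apart from the rest of that library. Beside results that use this group, values without that library are given, written as without replicate 1. In bulk RNA, fewer cells of a type and less RNA per cell cannot be told apart.

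Levels of different genes were compared per length, in the authors' deposited log2 FPKM table, which merges each control group in 1 column. Averaged over groups in the authors' deposited table, PSMB4, a structural beta subunit, was highest at 9.11 and PSMA7 led the alpha ring at 8.24, with PSMA5 lowest there at 4.34. In the caps, the authors' deposited table had PSMC3 (6.99) and PSMD4, a ubiquitin receptor (7.45), highest. PSMC1 was lowest of all at 1.65 in the authors' deposited table, but it has 13 annotated pseudogenes, and the opposite-strand gene NRDE2 covers 75.8% of its exon bases, so its counts are uncertain. PSMD12 was lowest of the non-ATPase subunits (5.67), PSMB2 of the structural beta subunits (5.37), PSMD10 highest and PSMD5 lowest of the cap chaperones (5.41 and 3.27), and PSME1 highest and PSME4 lowest of the activators (6.71 and 3.90) in the authors' deposited table. Among the cutting subunits the authors' deposited table had PSMB10 highest of the immunoproteasome set (7.09) and PSMB9 lowest (4.24), beside PSMB6 at 6.72 and PSMB5 at 5.51.

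Set against its constitutive partner, PSMB9 had its lowest share in OPM2 and its highest in H929. Counts per GENCODE exon length put PSMB9 at 17.6 and 18.9% of PSMB9 plus PSMB6 in the 2 H929 empty vector libraries, at 11.7 and 10.8% in MM1S and at 3.05 and 2.72% in OPM2. PSMB8 made up 34.1 and 34.0% of PSMB8 plus PSMB5 in H929, 44.9 and 49.2% in MM1S and 21.2 and 20.6% in OPM2. PSMB10 made up more than its partner PSMB7 in all 3 lines, at 61.0 and 60.9%, 52.7 and 51.9% and 62.6 and 57.1% in the same order. After IKZF1 knockout in H929 the shares were 56.1 and 50.8% for PSMB8, 38.9 and 31.4% for PSMB9 and 73.6 and 70.9% for PSMB10, each above both empty vector libraries. In MM1S they were 50.7 and 56.6%, 17.8 and 20.6% and 54.7 and 57.5%, all above the empty vector libraries. A share also depends on the partner, whose log2 fold changes lay between -0.48 and -0.21 in MM1S and between -0.064 and 0.080 in H929. None of these was called, and PSMB10 itself gave -0.011 in MM1S. In OPM2 the PSMB9 share was 3.13 and 5.02% after IKZF1 knockout, 5.37 and 6.78% after IKZF3 knockout, 4.77 and 3.63% in untreated cells and 6.28 and 6.46% under lenalidomide, so that the lenalidomide libraries lay above the untreated ones. These shares are descriptions without a test, and they depend on the lengths used: from the authors' deposited table, PSMB9 made up 28.0% in H929 empty vector (a merged column) and 53.3 and 44.7% after knockout, in the same order but higher.

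**Figure D1:**
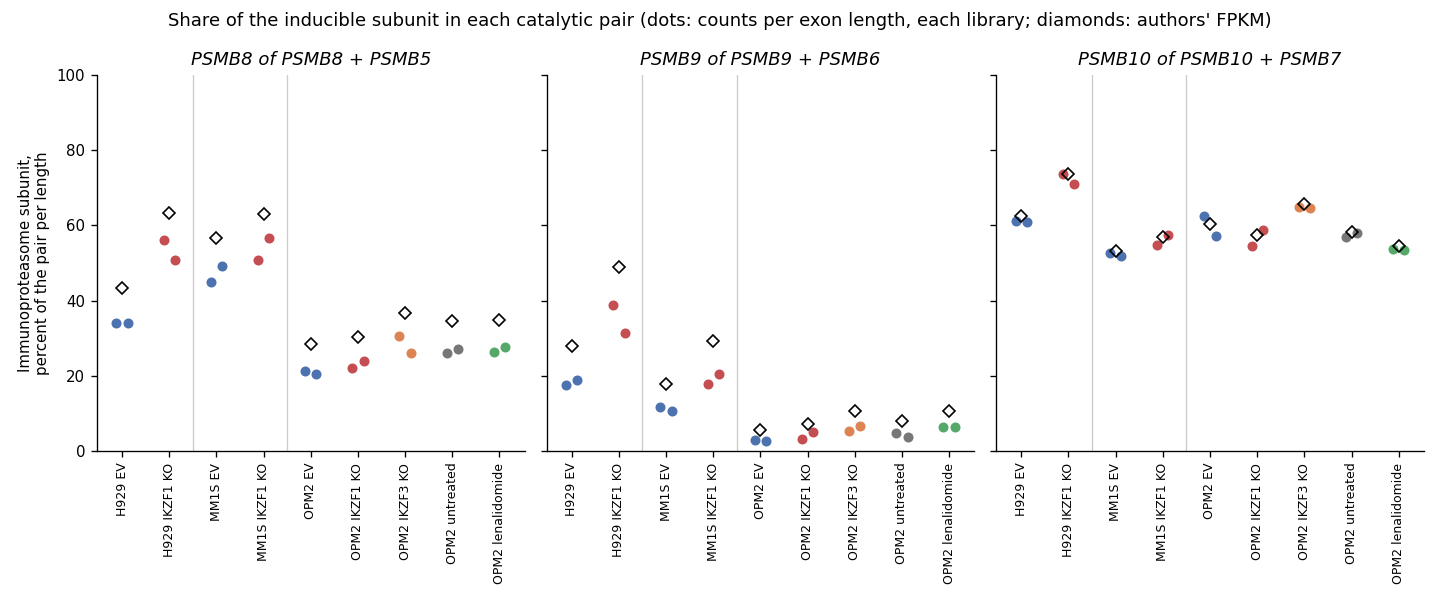
Share of each immunoproteasome subunit in the sum with its constitutive partner (percent, vertical axis) in the 9 groups (horizontal axis). Dots are libraries, from counts per GENCODE exon length, and diamonds are the authors' FPKM values; PSMB9 lies between 2.72 and 6.78% in OPM2 and between 10.8 and 38.9% in the other lines by the first measure.

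In H929, knockout of IKZF1 went with higher counts of the immunoproteasome subunits PSMB8 and PSMB9, while the constitutive subunits that they replace were not called. Of the 42 genes, 3 were higher (background: 5.92% of all genes tested) and 0 lower (4.60%) in edgeR's quasi-likelihood test at an adjusted p below 0.05. At an unadjusted p below 0.05, 7 were higher and 4 lower, DESeq2 called 5 higher and 0 lower and limma-voom 4 and 0. The share of all genes is not given for these counts, which are not by themselves results about the 42 genes. The median log2 fold change of the 42 was -0.13, beside -0.031 over all genes.

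PSMB8 stood at 71.5 and 78.1 CPM in the 2 empty vector libraries and 200.4 and 136.9 CPM after knockout. Both knockout libraries were above both controls, with library a the higher, and PSMB8 rose by 1.17 ± 0.21 (SE) on the log2 scale, 2.25-fold (adjusted p = 0.00184). PSMB9, the subunit that replaces PSMB6, went from 39.6 and 47.4 CPM to 134.0 and 91.6 CPM, a rise of 1.37 ± 0.26 or 2.59-fold (adjusted p = 0.00257). PSMA2, of the alpha ring, went from 181 and 191 CPM to 302 and 265 CPM (log2 fold change 0.61 ± 0.13, adjusted p = 0.00573). The groups did not overlap in any of the 3 genes.

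PSMB10 and the PA28 genes had the same order of libraries but missed the threshold. PSMB10 stood at 141.9 and 149.9 CPM in empty vector and 251 and 216 CPM after knockout (log2 fold change 0.68 ± 0.21, adjusted p = 0.0506). PSME2 went from 148.1 and 169.7 CPM to 272 and 215 CPM (0.62 ± 0.20, adjusted p = 0.0675), and PSME1 from 209 and 224 CPM to 307 and 266 CPM (0.40 ± 0.17, adjusted p = 0.173). The constitutive partners gave values near 0: PSMB5 gave -0.0041 ± 0.19, PSMB6 0.080 ± 0.19 and PSMB7 -0.064 ± 0.16, none called. PSMA4 (0.35) was the next highest, and the 31 alpha, beta and cap genes outside the immunoproteasome ranged from -0.32 to 0.61.

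PSMB8 stayed called under every alternative run, but without H929 empty vector replicate 1 PSMB9 had an adjusted p of 0.0517 and PSMA2 one of 0.0733, and PSMA2 also missed it without knockout library a (0.0685). The spread is shared across groups, and without OPM2 empty vector replicate 1 the count was 7 higher (10.9% of all genes), PSMB10, PSME1 and PSME2 among them, and 6 lower (11.3%). PSMB8 shares 20.6% of its exon bases with the opposite-strand PSMB8-AS1, which stood at 4.42 and 4.31 CPM in empty vector and 9.83 and 10.1 CPM after knockout; PSMB10 shares 34.8% and PSMA2 14.6% with unnamed coding transcripts on their own strand, and the sources used here do not give the strand setting of the counting.

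**Figure D2:**
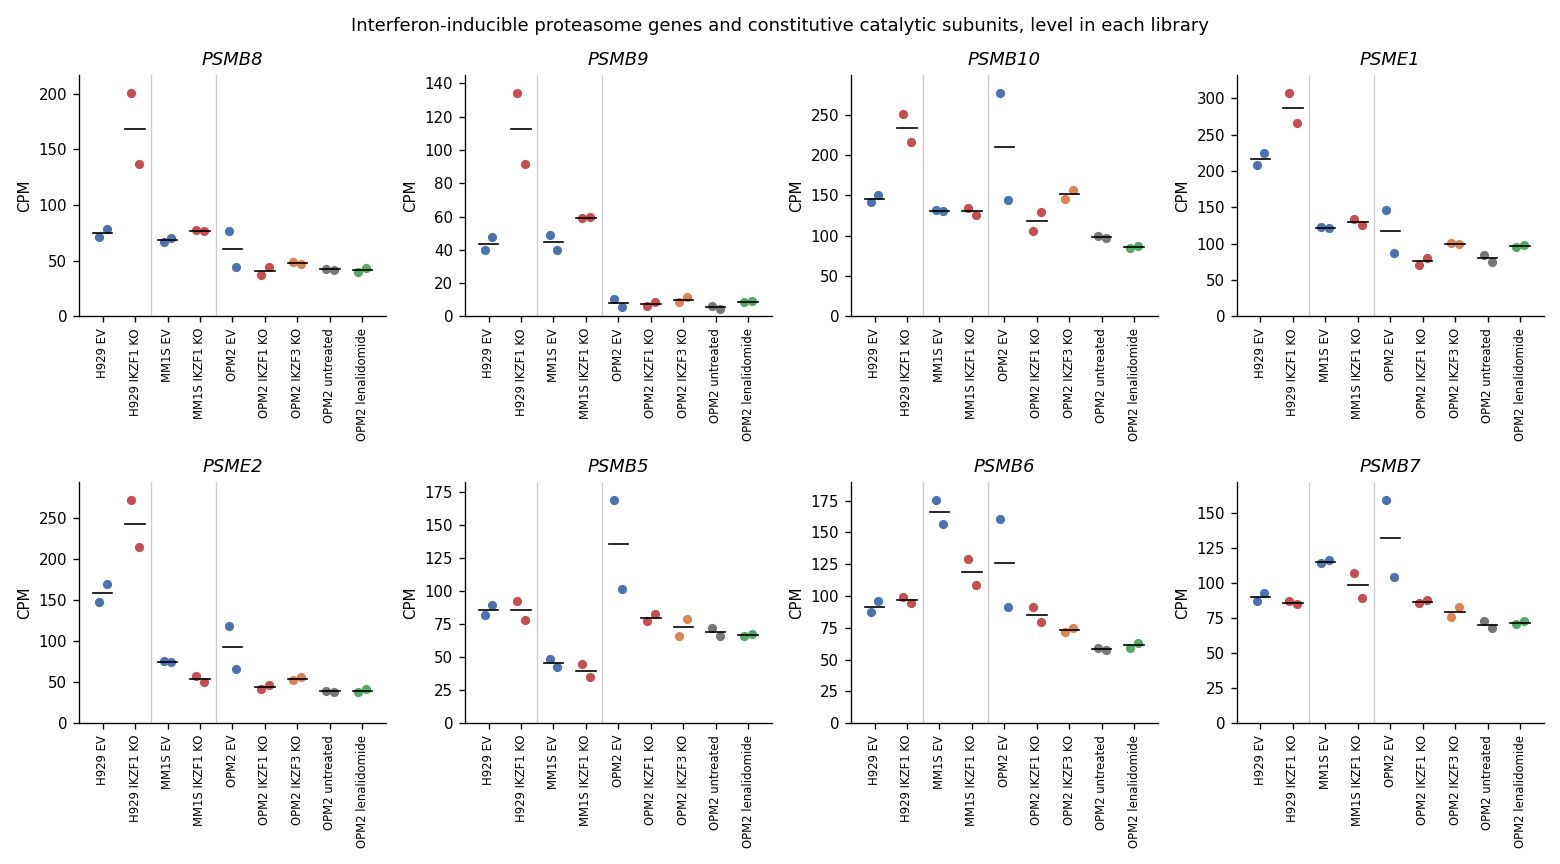
Level of PSMB8, PSMB9, PSMB10, PSME1 and PSME2 and of the constitutive PSMB5, PSMB6 and PSMB7 in CPM (vertical axes, from 0) in the 9 groups (horizontal axis). Each dot is a library and the black line the mean of 2; in H929 both knockout libraries of PSMB8 (200.4 and 136.9 CPM) lie above both empty vector libraries.

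Genes that load peptides for MHC class I and genes that answer interferon were higher in the same H929 libraries. Of 15 genes of peptide loading and MHC class I, 9 rose and 0 fell, with a median log2 fold change of 0.69 beside -0.031 over all genes. TAP1, the peptide transporter gene next to PSMB9, went from 138 and 138 CPM to 1009.8 and 480.7 CPM (2.43 ± 0.23, adjusted p = 7.01e-06), B2M, the light chain of class I, changed by 0.95 ± 0.15 (adjusted p = 0.000788), and library a was above b in TAP1 as in PSMB8. Of 14 interferon-responsive genes 13 rose and 0 fell (median 3.69). The part of these genes in the proteasome result was not tested. Of the 7 genes listed as assembly factors (PSMG1 to PSMG4, POMP, PAAF1 and AKIRIN2), 0 were called in either direction. The same held for the 14 proteasome-bound proteins tested and the 9 ubiquitin genes. Among 10 regulators of proteasome genes 3 fell (SYVN1 -0.44, MAFG -0.43, NGLY1 -0.42).

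In MM1S, genes of MHC class I rose after IKZF1 knockout, the immunoproteasome subunits were not called, and PSMF1 with a few core and cap genes was lower. Of the 42 genes, 1 was higher (background: 15.6%) and 4 were lower (12.6%), and 35 of the 42 had a negative fold change, with a median of -0.21 beside 0.0031 over all genes. Without OPM2 empty vector replicate 1 the count was 3 higher (22.8% of all genes) and 19 lower (19.5%), and without MM1S empty vector replicate 1 it was 1 in all (2 in all without empty vector replicate 2 or knockout library b).

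PSMF1, the gene of the inhibitor PI31, had the smallest p of these. It stood at 150.4 and 147.1 CPM in empty vector and 82.1 and 80.2 CPM after knockout, so that both knockout libraries were far below both controls. PSMF1 fell by 0.87 ± 0.11 (SE) on the log2 scale (adjusted p = 2.78e-05) and was called under every alternative run. PSMC4, a cap ATPase, went from 177 and 171 CPM to 125 and 102 CPM (-0.62 ± 0.16, adjusted p = 0.0104). PSMB2, a structural beta subunit, changed by -0.37 ± 0.11 (adjusted p = 0.0217) and PSMD14, the cap's deubiquitinase, by -0.34 ± 0.11 (adjusted p = 0.0374). PSMD1, a scaffold subunit of the cap, went the other way, from 199 and 197 CPM to 285 and 246 CPM (0.42 ± 0.11, adjusted p = 0.0104). PSMB2 and PSMD14 lost the call without either empty vector library of MM1S or without knockout library b, PSMD1 without either empty vector library or without knockout library a, and PSMC4 without empty vector replicate 1 or knockout library b (adjusted p from 0.0623 to 0.321); PSMD14 was called in 7 of the 18 fits that leave out 1 library.

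The immunoproteasome genes of MM1S gave smaller differences. PSMB8 went from 66.9 and 70.2 CPM to 77.5 and 76.3 CPM (0.17 ± 0.21, adjusted p = 0.608), and PSMB9 from 49.1 and 40.1 CPM to 59.1 and 59.5 CPM (0.41 ± 0.26, adjusted p = 0.261). In both genes the 2 knockout libraries lay above the 2 controls, but neither gene was called. The share of all genes with that order of libraries is not given. PSMB10 gave -0.011 ± 0.21, PSME1 0.085 ± 0.17 and PSME2 -0.47 ± 0.20, and the constitutive PSMB5 gave -0.21 ± 0.20, PSMB6 -0.48 ± 0.19 and PSMB7 -0.23 ± 0.16, none called. Of the class I list 12 of 15 rose and 0 fell (median 0.67), among them NLRC5, the class I transactivator (1.21 ± 0.16, adjusted p = 6.66e-05), while TAP1 went from 141.6 and 130.0 CPM to 155 and 147 CPM and was not called. Of the interferon list 7 of 14 rose (STAT2 1.11, IRF9 0.89) and 0 fell. Of 14 proteasome-bound proteins 3 fell, the deubiquitinases UCHL5 (-0.56) and USP14 (-0.53) and the shuttle UBQLN4 (-0.35), and 0 rose; of 7 assembly factors 0 were called. Of the regulators 3 rose (SYVN1 0.74, MAF 1.08, NGLY1 0.49) and MAFF fell (-0.98), and UBB (0.62) was the only one of 9 ubiquitin genes called.

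In OPM2 the empty vector control, which both knockouts share, had higher counts of nearly the whole proteasome than untreated cells. In empty vector against untreated OPM2, 36 of the 42 genes were higher (background: 19.5%) and 1 lower (15.8%), with a median of 0.69 beside 0 over all genes. All 7 alpha genes, the 4 structural beta genes, the 3 constitutive cutting subunits and the 6 ATPases were higher, with 10 of 11 non-ATPase cap genes; without replicate 1 the count was 32 higher and 0 lower (10.3% and 10.3% of all genes), with a median of 0.47.

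PSMB5 stood at 168 and 102 CPM in empty vector and 71.7 and 65.7 CPM in untreated cells, with both empty vector libraries above both untreated ones (0.97 ± 0.20, adjusted p = 0.00265). PSMA7 stood at 582 and 428 CPM in empty vector beside 303 and 291 CPM in untreated cells (0.76 ± 0.13, adjusted p = 0.00147), and PSMD8, a lid subunit of the cap, at 386 and 222 CPM beside 151 and 138 CPM (1.07 ± 0.18, adjusted p = 0.00141). PSMD2, which binds ubiquitin-like proteins at the cap's base, stood at 474 and 398 CPM beside 264 and 275 CPM (0.69 ± 0.11). In each of these 4 genes, empty vector replicate 1 was the highest of the 4 libraries and replicate 2 the next. PSMB6 changed by 1.11 ± 0.19, PSMB7 by 0.91 ± 0.16, PSMB2 by 0.76 ± 0.11, PSMB3 by 1.10 ± 0.19, PSMA3 by 0.97 ± 0.14 and PSMD6 by 0.63 ± 0.11, all called. PSME2 (1.25 ± 0.21), PSMB10 (1.10 ± 0.21) and PSME1 (0.55 ± 0.18) were higher too, whereas PSMB8 (0.52 ± 0.21, adjusted p = 0.0697) and PSMB9 (0.51 ± 0.31, adjusted p = 0.21) were not called. PSMD5, a chaperone of cap assembly, was lower (-0.43 ± 0.16, adjusted p = 0.0439). Without replicate 1 the values were PSMB5 0.53, PSMA7 0.49, PSMD8 0.58, PSMD2 0.52, PSMB6 0.62, PSMB7 0.54, PSMB2 0.57, PSMB3 0.60, PSMA3 0.75, PSMD6 0.50, PSME2 0.74 and PSMB10 0.52, all called, and PSME1 0.10, PSMB8 0.040, PSMB9 -0.068 and PSMD5 -0.21, none called.

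As a list, the 42 genes lay higher in both empty vector libraries. The median of the 42 genes, as log2 over the untreated mean, was 0.96 in replicate 1 and 0.50 in replicate 2, 39 of 42 were above both untreated libraries in replicate 2 (as were 40.6% of all genes tested), and the 42 genes took 0.947 and 0.781% of counts, beside 0.586 and 0.588% in untreated cells. With the 4 compared libraries fitted alone it was 0 in both directions, where 0 of all genes were called. The vector and doxycycline differ together between these groups, and the effects of each cannot be told apart. Outside the 42 genes, 5 of 7 assembly factors rose (PSMG1 0.90, POMP, the maturation factor of the core, 0.80) and 0 fell, 6 of 14 proteasome-bound proteins rose (ADRM1, a ubiquitin receptor, 1.25; SEM1 1.23), 6 of 9 ubiquitin genes rose and 1 fell, and of the class I list 5 rose and 1 fell. Of the regulators 2 rose and 3 fell, MAF (-1.02) with the smallest p, and of the interferon list 1 rose and 1 fell. Without replicate 1, 1 assembly factor rose and 1 fell, 5 proteasome-bound proteins and 3 ubiquitin genes rose, and of the class I list 1 rose and 2 fell.

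**Figure D3:**
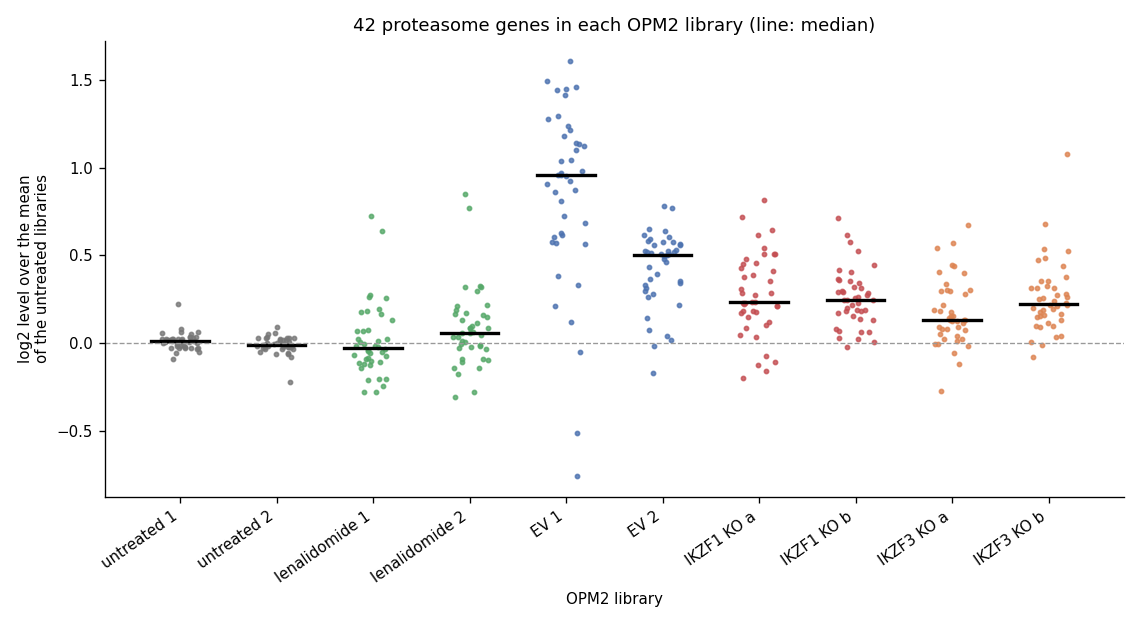
Level of each of the 42 genes in the 10 OPM2 libraries, as log2 over the mean of the 2 untreated libraries (vertical axis), by library (horizontal axis). Dots are genes and the line is their median; it is 0.96 and 0.50 in the empty vector libraries, between 0.13 and 0.25 in the knockout libraries, and -0.030 and 0.057 under lenalidomide.

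Against empty vector, knockout of IKZF1 in OPM2 went with lower counts of the core and cap and higher counts of PSME4 and PSMD5. Of the 42 genes 27 were lower (background: 20.0%) and 2 higher (16.2%), with a median of -0.51 beside 0 over all genes. All 7 alpha genes fell, 3 of 4 structural beta genes, all 3 constitutive cutting subunits, 2 of 3 immunoproteasome subunits, 3 of 6 ATPases and 6 of 11 non-ATPase genes. Against untreated cells, by contrast, 6 genes were higher (4.08% of all genes) and 0 lower (3.69%), with a median of 0.24: PSMB2 0.57, PSMD11 0.70, PSMD12 0.44, PSMD1 0.40, PSMD2 0.43 and PSME4. Without empty vector replicate 1, 2 were higher (11.2% of all genes) and 7 lower (10.0%), with a median of -0.18; with the compared libraries fitted alone, 0 of the 42 and 114 of all genes were called. Without either knockout library the count was 15 in all (3076 of all genes without a, 3345 without b).

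PSME2 had the greatest fall against empty vector. It stood at 119.0 and 66.6 CPM in empty vector, 41.4 and 47.2 CPM after IKZF1 knockout and 39.5 and 38.4 CPM in untreated cells, so that the knockout libraries lay near the untreated ones and below the empty vector (-1.06 ± 0.21, adjusted p = 0.00205; -0.56 without replicate 1; 0.18 against untreated cells). PSMD8 changed by -0.91 ± 0.18 (adjusted p = 0.00243), and stood at 169 and 153 CPM after knockout. PSMC3, a cap ATPase, stood at 558 and 309 CPM in empty vector, 241 and 232 after knockout and 207 and 202 in untreated cells (-0.87 ± 0.19, adjusted p = 0.00408). These genes and PSMA3 (-0.55 ± 0.14), PSMA5 (-0.75 ± 0.16), PSMA7 (-0.57 ± 0.13) and PSMD13 (-0.68 ± 0.17) had the smallest p-values among those that fell, and all of them had a positive value against untreated cells (0.15 for PSMD8, 0.21 for PSMC3). Without replicate 1 the values against empty vector were PSMD8 -0.43, PSMC3 -0.35, PSMA3 -0.33, PSMA5 -0.41 and PSMA7 -0.30, still called, and -0.24 for PSMD13, which was not (adjusted p = 0.0566).

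The constitutive cutting subunits and PSMB10 followed the same order, while PSMB8 (-0.063 against untreated cells) and PSMB9 did not. PSMB5 stood at 77.3 and 82.2 CPM after IKZF1 knockout, between its empty vector and untreated levels (-0.76 ± 0.19 against empty vector, adjusted p = 0.00842), and PSMB6 (-0.56 ± 0.19, adjusted p = 0.0328) and PSMB7 (-0.61 ± 0.16, adjusted p = 0.00891) were called as well. PSMB10 stood at 276 and 144 CPM in empty vector and 106.3 and 129.7 after knockout (-0.83 ± 0.21, adjusted p = 0.00756), and PSMB8 went from 77.1 and 44.7 CPM to 36.9 and 44.2 CPM (-0.58 ± 0.21, adjusted p = 0.0445). Replicate 2 of the empty vector, at 44.7 CPM of PSMB8, was within 1 CPM of knockout library b (44.2 CPM), and without replicate 1 the change of PSMB8 was -0.11 (adjusted p = 0.719). PSMB9, low in all OPM2 libraries, stood at 10.7 and 5.43 CPM in empty vector and 6.25 and 8.88 after knockout, with overlapping groups (-0.054 ± 0.30, adjusted p = 0.934), and PSME1 gave -0.62 ± 0.18 (adjusted p = 0.0144). None of the cutting subunits, nor PSME1, was called without replicate 1, where PSMB5 gave -0.32 (adjusted p = 0.113), PSMB6 -0.072, PSMB7 -0.24, PSMB10 -0.26, PSMB9 0.52 and PSME1 -0.18.

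Knockout of IKZF3 in OPM2, read against the same empty vector libraries, gave 26 lower (background: 20.6%) and 2 higher (16.2%), with a median of -0.49 beside -0.032 over all genes. All 7 alpha genes and all 3 constitutive cutting subunits were lower (PSMB5 -0.90 ± 0.19, PSMB6 -0.79 ± 0.19, PSMB7 -0.73 ± 0.16), with 3 of 4 structural beta genes, 4 of 6 ATPases and 7 of 11 non-ATPase cap genes. None of the immunoproteasome subunits was called: PSMB8 gave -0.33 ± 0.21, PSMB9 0.36 ± 0.29 and PSMB10 -0.47 ± 0.21. PSME2 fell (-0.76 ± 0.20, adjusted p = 0.01) and PSME1 (-0.23 ± 0.17) was not called. Those with the smallest p-values were PSMB3 (-0.92 ± 0.19), PSMB5, PSMB6, PSMA3 (-0.78 ± 0.14), PSMA7 (-0.66 ± 0.13), PSMC4 (-0.73 ± 0.16), PSMC5 (-0.85 ± 0.17), PSMD3 (-0.76 ± 0.16) and PSMD8 (-0.91 ± 0.18). Without empty vector replicate 1 it was 2 higher (12.1% of all genes) and 16 lower (11.3%), with a median of -0.25; PSMB3 -0.43, PSMB5 -0.46, PSMB7 -0.36, PSMA3 -0.55, PSMA7 -0.39, PSMC4 -0.35, PSMC5 -0.41, PSMD3 -0.41 and PSMD8 -0.43 were then still called, and PSMB6 -0.29, PSME2 -0.26, PSME1 0.22, PSMB8 0.14, PSMB9 0.94 and PSMB10 0.10 were not. Without knockout library a it was 1 higher and 10 lower (2541 of all genes called). Against untreated cells 4 were higher (3.74% of all genes; PSMB2 0.49, PSMD11 0.45, PSME4 0.49, PSMD6 0.44) and 0 lower (4.53%), and with the compared libraries alone 0 of the 42 and 52 of all genes were called.

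Assembly factors and ubiquitin genes also differed from the empty vector in OPM2, and hardly any of them was called against untreated cells. Of 7 assembly factors 6 fell after IKZF1 and 5 after IKZF3 knockout, and 0 rose (PSMG1 -0.82 and -0.89, PSMG4 -1.04 and -0.90), with medians of -0.67 and -0.61. Of 14 proteasome-bound proteins 4 fell in each, SEM1 (-0.99 and -1.07) in both, and 2 and 1 rose. Of 9 ubiquitin genes 4 fell in each, among them RPS27A (-0.93 and -0.95), which encodes ubiquitin fused to a ribosomal protein, and UBA6, an activating enzyme, rose (0.85 and 0.90). Of 10 regulators 2 rose in each, MAF (1.74 and 1.22) in both; 2 fell after IKZF1 knockout and 1, NFE2L1 (-0.82), after IKZF3 knockout. Of the class I list 2 rose and 2 fell after IKZF1 knockout (TAP1 0.69, TAP2 -0.59), and 4 rose and 1 fell after IKZF3 knockout (TAP1 0.98, TAP2 -0.42). Of the interferon list 5 and 8 rose and 0 fell; IFIT3 stood at 0.882 and 1.19 CPM in empty vector, 28.5 and 29.9 CPM with IKZF1 knocked out and 13.7 and 23.6 CPM with IKZF3 knocked out. Without replicate 1, 2 and 2 assembly factors, 3 and 3 proteasome-bound proteins and 2 and 1 ubiquitin genes fell, with PSMG1 at -0.57 and -0.65, SEM1 at -0.55 and -0.64 and RPS27A at -0.42 and -0.44. Against untreated cells 1 and 0 assembly factors, 0 and 0 proteasome-bound proteins and 1 and 0 ubiquitin genes fell and 0 rose, with PSMG1 at 0.085 and 0.0080, SEM1 at 0.24 and 0.15, RPS27A at -0.036 and -0.057 and UBA6 at 0.10 and 0.15. MAF gave 0.73 and 0.20 against untreated cells and NFE2L1, after IKZF3 knockout, -1.02; of the class I list 1 and 4 rose and of the interferon list 3 and 4, and 0 fell. Without replicate 1 these 2 lists had 1 and 9, and 3 and 6, rising.

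PSME4 and PSMD5 rose in OPM2 where most of the core fell. PSME4 encodes PA200, an activator of the nuclear proteasome. It stood at 55.5 and 81.5 CPM in empty vector, 77.8 and 81.2 in untreated cells, 131 and 122 with IKZF1 knocked out, 116 and 108 with IKZF3 knocked out and 131 and 143 under lenalidomide. All 6 libraries of the last 3 groups were above all 4 control libraries. The rise was 0.88 ± 0.15 after IKZF1 knockout (adjusted p = 0.000977), 0.70 ± 0.15 after IKZF3 knockout (adjusted p = 0.00271) and, against its own untreated control, 0.79 ± 0.15 or 1.73-fold under lenalidomide (adjusted p = 0.00261). Against untreated cells the knockouts gave 0.67 (adjusted p = 0.01) and 0.49 (adjusted p = 0.0495). Without replicate 1 they gave 0.67 (adjusted p = 0.000175) and 0.49 (adjusted p = 0.00163) against empty vector. With the compared libraries fitted alone the adjusted p was 0.183 for IKZF1 and 0.208 for IKZF3 knockout, while the lenalidomide result was called in all alternatives run.

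PSMD5 stood at 27.0 and 40.8 CPM in empty vector, 45.4 and 46.4 in untreated cells, 58.7 and 61.4 with IKZF1 knocked out, 56.7 and 49.1 with IKZF3 knocked out and 52.6 and 57.4 under lenalidomide. Its rise against empty vector was 0.82 ± 0.16 (adjusted p = 0.0019) and 0.63 ± 0.16 (adjusted p = 0.0066). Without replicate 1 it was 0.59 (adjusted p = 0.00123) and 0.41 (adjusted p = 0.0124). Here the choice of control decides the call, since against untreated cells PSMD5 gave 0.39 (adjusted p = 0.157) and 0.20 (adjusted p = 0.495), and under lenalidomide 0.26 ± 0.15 (adjusted p = 0.359).

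In H929 and MM1S neither gene was called. PSME4 stood at 93.2 and 93.6 CPM in H929 empty vector and 75.9 and 73.0 after knockout (-0.33 ± 0.15, adjusted p = 0.194), and went from 138 and 145 CPM to 171 and 191 CPM in MM1S (0.36 ± 0.14, adjusted p = 0.0786). PSMD5 went from 25.3 and 23.7 CPM to 19.8 and 19.1 CPM in H929 (-0.33 ± 0.16) and from 58.9 and 59.8 CPM to 76.3 and 68.6 CPM in MM1S (0.29 ± 0.15). For both genes the knockout libraries lay below the controls in H929 and above them in MM1S. The difference of the IKZF1 effect between H929 and OPM2 was called for both, at -1.21 ± 0.21 for PSME4 (adjusted p = 0.00287) and -1.15 ± 0.23 for PSMD5 (adjusted p = 0.00654), and without OPM2 empty vector replicate 1 at -0.99 and -0.92.

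**Figure D4:**
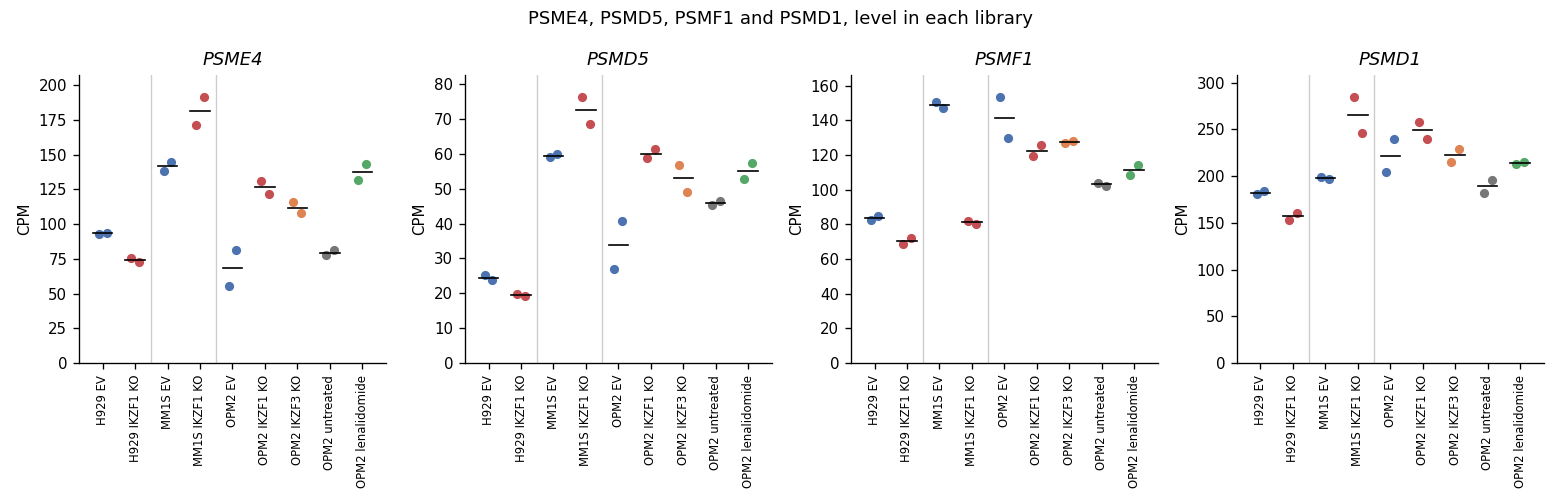
Level of PSME4, PSMD5, PSMF1 and PSMD1 in CPM (vertical axes, from 0) in the 9 groups (horizontal axis). Each dot is a library and the black line the mean of 2; in OPM2 all knockout and lenalidomide libraries of PSME4 (107.8 to 143.3 CPM) lie above all control libraries (55.5 to 81.5 CPM), and PSMF1 in MM1S lies at 82.1 and 80.2 CPM after knockout beside 150.4 and 147.1.

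Under lenalidomide PSME4 alone was called in the fit of all libraries. Against untreated OPM2 cells 1 of the 42 genes was higher (background: 5.76%) and 0 lower (4.58%), with a median of 0.0075 beside 0 over all genes. At an unadjusted p below 0.05, 3 were higher and 2 lower, DESeq2 called 1 and 1, and limma-voom 1 and 0, all without a share of all genes beside them. PSMB9 stood at 6.30 and 4.58 CPM in untreated cells and 8.42 and 9.24 CPM with the drug, with the groups apart (0.68 ± 0.31, adjusted p = 0.211). PSMB8 went from 43.0 and 41.7 CPM to 39.9 and 43.4 CPM, with overlapping libraries (-0.026 ± 0.21), and PSMB10 gave -0.19 ± 0.21, PSME1 0.28 ± 0.18, PSME2 0.019 ± 0.21, PSMB5 -0.048 ± 0.20, PSMB6 0.069 ± 0.19 and PSMB7 0.032 ± 0.16, none called.

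Beside them, 6 of 14 interferon genes rose and 0 fell under lenalidomide, IFIT3 from 1.56 and 1.50 CPM to 61.1 and 56.8 CPM. Of the class I list 4 of 15 rose and 0 fell, TAP1 from 96.5 and 90.4 CPM to 165 and 169 CPM (0.84 ± 0.23, adjusted p = 0.028). NFE2L1, which drives proteasome genes when the proteasome is inhibited, fell by 0.83 ± 0.11 (SE, adjusted p = 0.000206), its relative NFE2L2 changed by -0.44 ± 0.12 (adjusted p = 0.0326) and MAF by 0.90 ± 0.15 (adjusted p = 0.00133). Of the assembly, proteasome-bound and ubiquitin lists 0 genes were called under lenalidomide. With the 4 compared libraries fitted alone the count among the 42 was 9 higher (23.4% of all genes in that fit) and 5 lower (21.9%). Leaving out OPM2 empty vector replicate 1, which enters only the shared spread, gave 5 higher (11.3%) and 2 lower (10.6%). The difference between the lenalidomide and IKZF1 knockout effects, each against its own control, was called for 0 of 42 genes in either direction (background: 0.0686% higher and 0.213% lower). Without a share of all genes beside it, the count at an unadjusted p below 0.05 (26 higher and 1 lower) is not by itself a result about the 42. DESeq2 called 7 and 0 and limma-voom 0 and 0, also without that share. With OPM2 empty vector replicate 2 left out, so that replicate 1 is the only control of the knockout, it was 33 higher and 2 lower (6582 of all genes called).

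**Figure D5:**
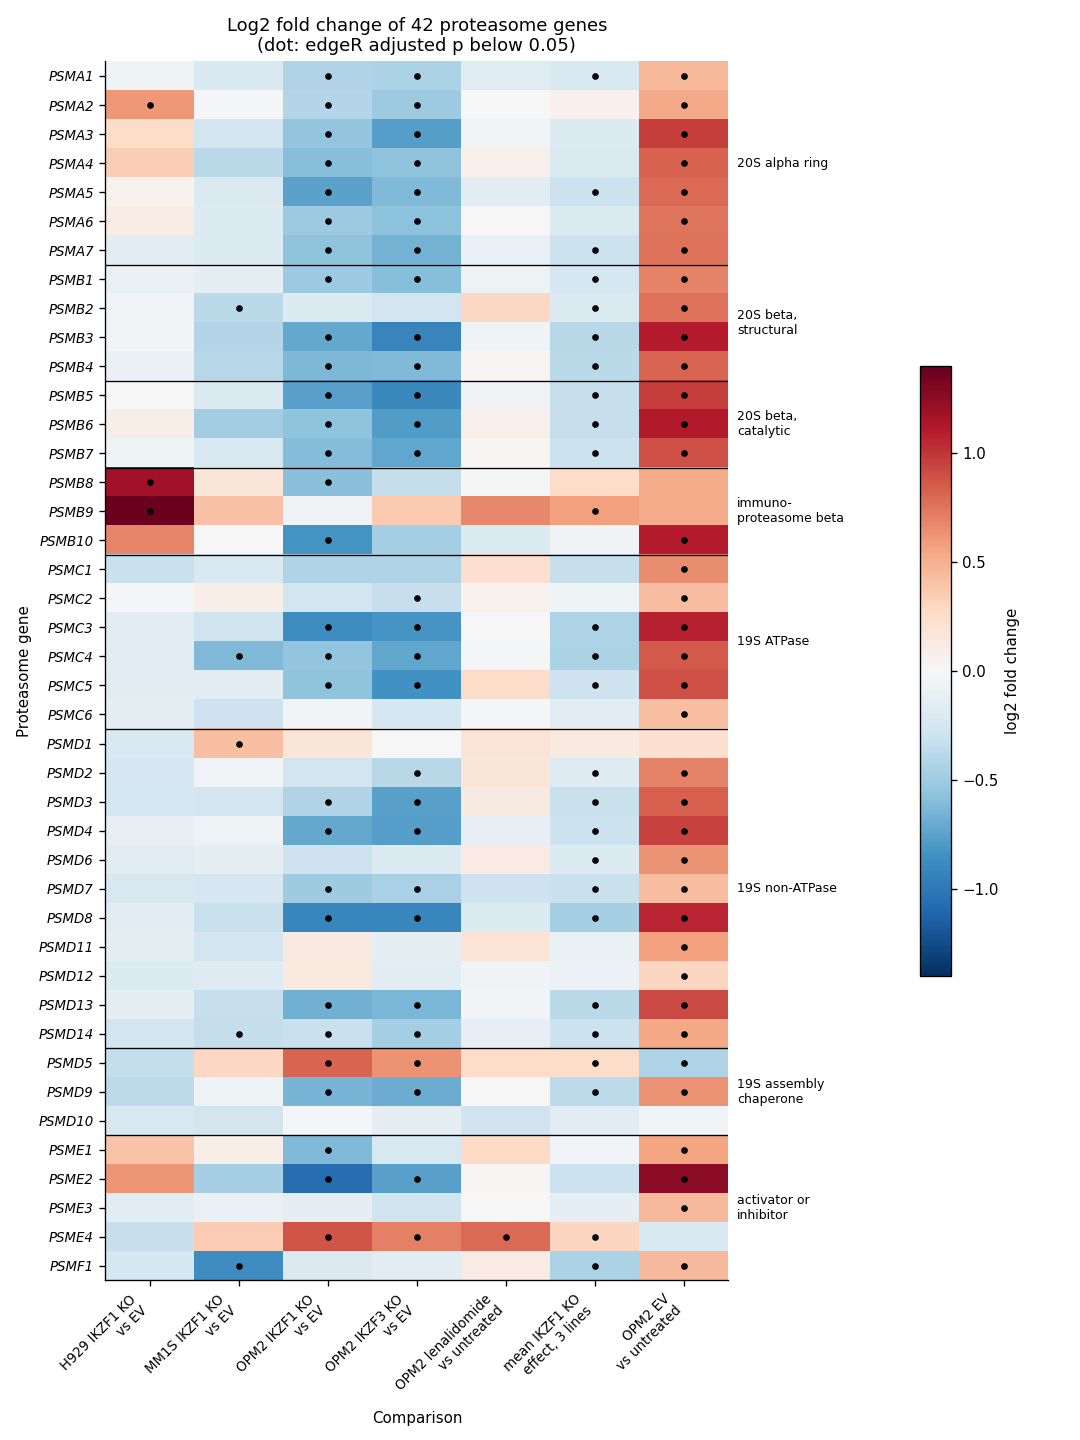
Log2 fold change of each of the 42 genes (rows, by class) in the knockout, lenalidomide and empty vector comparisons (columns), as colour with the scale at the side; a black dot marks an edgeR adjusted p below 0.05. The 2 OPM2 knockout columns share their control, and the column of empty vector against untreated cells has 36 genes higher, while the IKZF1 and IKZF3 columns have 27 and 26 lower.

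The IKZF1 effect differed between lines for named genes. In the difference H929 minus MM1S 5 genes were higher (background: 6.94%) and 2 lower (8.91%). PSMB8 differed by 1.01 ± 0.29 (adjusted p = 0.0307), PSME2 by 1.08 ± 0.29, PSMA4 by 0.72 ± 0.22, PSMA2 by 0.63 ± 0.18 and PSMF1 by 0.62 ± 0.15, with PSMD1 (-0.64 ± 0.16) and PSME4 (-0.68 ± 0.20) in the other direction. PSMF1 kept its call whichever library was left out, but the other 6 calls were fragile: without MM1S empty vector replicate 1 only PSMF1 was called, and without any one of H929 empty vector replicates 1 and 2, H929 knockout library a, MM1S empty vector replicate 2 and MM1S knockout library b the count was 2 (4 without MM1S knockout library a). In H929 minus OPM2 9 were higher (6.51%) and 2 lower (6.14%): PSMB8 (1.75 ± 0.30, adjusted p = 0.00285), PSME2 (1.68 ± 0.29), PSMB10 (1.51 ± 0.30), PSMB9 (1.43 ± 0.39), PSME1 (1.02 ± 0.25) and 4 alpha genes, with PSME4 and PSMD5 lower. Without OPM2 empty vector replicate 1 the PSMB8 difference was 1.28 (adjusted p = 0.00114), that of PSME2 1.17 and of PSMB10 0.94, and that of PSMB9 was 0.86 (adjusted p = 0.186). The count was 6 without H929 empty vector replicate 1 or H929 knockout library a. It was 33 with OPM2 empty vector replicate 2 left out (6837 of all genes called). With the 8 compared libraries fitted alone, 0 of the 42 were called in this difference and 0 in the next. Neither difference was tested with untreated cells as the OPM2 control. Against these, IKZF1 knockout in OPM2 gave PSMB8 -0.063, PSMB9 0.46, PSMB10 0.27, PSME1 -0.070 and PSME2 0.18. In MM1S minus OPM2 only PSMF1 was called, lower in MM1S (-0.67 ± 0.15, adjusted p = 0.00711), with 0 higher (background: 11.8%) and 1 lower (8.94%). With no share of all genes given, the count was 9 higher and 4 lower at an unadjusted p below 0.05, 2 and 3 in DESeq2 and 0 and 1 in limma-voom. It was 0 higher and 3 lower without OPM2 empty vector replicate 1, and without replicate 2 it was 27 higher and 5 lower (7010 of all genes called).

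Averaged over the 3 lines, the IKZF1 effect gave 3 higher (background: 15.5%) and 23 lower (18.6%), with a median of -0.24 beside -0.018 over all genes. The 3 were PSMB9 (0.58 ± 0.16, adjusted p = 0.0109), PSME4 (0.30 ± 0.084) and PSMD5 (0.26 ± 0.091). PSMF1 had the smallest p of those that fell (-0.44 ± 0.061, adjusted p = 9.56e-05), and PSMB5 (-0.32 ± 0.11), PSMB6 (-0.32 ± 0.11) and PSMB7 (-0.30 ± 0.091) fell too. PSMB8 (0.25 ± 0.12), PSMB10 (-0.054 ± 0.12), PSME1 (-0.043 ± 0.10) and PSME2 (-0.30 ± 0.12) were not called. The OPM2 empty vector enters this mean, and without its replicate 1 the count was 4 higher (18.5% of all genes) and 22 lower (19.7%). It was 15 in all without any one of H929 empty vector replicate 2, MM1S empty vector replicate 1 and MM1S knockout library b. The mean was not tested with untreated cells as the OPM2 control. With that control, IKZF1 knockout in OPM2 gave PSMB5 0.21, PSMB6 0.55, PSMB7 0.30 and PSMF1 0.25, none called. The median of the proteasome genes in OPM2 was then 0.24, beside -0.51 against empty vector. For PSMB5, PSMB6 and PSMB7, H929 gave -0.0041, 0.080 and -0.064, and MM1S -0.21, -0.48 and -0.23.

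Between lines, PSMB9 separated OPM2 from the others, and OPM2 empty vector had higher counts of most core genes than H929. The 42 genes took 0.947 and 0.781% of counts in OPM2 empty vector, but 0.586 and 0.588% in untreated OPM2 cells. They took 0.585 and 0.613% in H929 empty vector and 0.801 and 0.782% in MM1S empty vector. Untreated OPM2 cells were not tested against the other lines. Between H929 and MM1S empty vector 10 were higher in H929 (background: 32.9%) and 14 lower (30.3%); between H929 and OPM2 5 were higher in H929 (32.4%) and 29 lower (32.2%); between MM1S and OPM2 4 were higher in MM1S (32.8%) and 18 lower (34.7%). Without OPM2 empty vector replicate 1 the latter counts were 8 and 23 for H929 (33.0% and 30.3% of all genes) and 11 and 13 for MM1S (33.1% and 31.9%), with 21 of 42 genes positive and a median of -0.0026 for MM1S beside -0.26 with it. PSMB9 stood 2.47 higher on the log2 scale in H929 than in OPM2 (SE 0.28, adjusted p = 2.83e-06) and 2.50 higher in MM1S than in OPM2 (adjusted p = 2.12e-06), while H929 and MM1S differed by -0.035 ± 0.25 (adjusted p = 0.915). H929 and MM1S empty vector libraries overlapped in PSMB9, and in OPM2 the highest of 10 libraries was at 11.5 CPM. The PSMB9 differences from OPM2 were 3.04 and 3.08 without OPM2 empty vector replicate 1. PSMB8 was not called between any 2 lines (0.13 ± 0.21, 0.30 ± 0.21 and 0.18 ± 0.21 in the order above), but without that library it was higher in H929 (0.78, adjusted p = 0.000861) and MM1S (0.66, adjusted p = 0.00295) than in OPM2.

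PSMB10 was lower in H929 than in OPM2 (-0.53 ± 0.21, adjusted p = 0.0374) and lower in MM1S than in OPM2 (-0.68 ± 0.21, adjusted p = 0.00973), and gave 0.15 ± 0.21 between H929 and MM1S; without OPM2 empty vector replicate 1, which held 276.4 CPM beside 144.4 in replicate 2, the H929 difference was 0.049 and that of MM1S -0.098 (adjusted p = 0.445), neither called. PSME1 was higher in H929 than in MM1S (0.83 ± 0.17) and OPM2 (0.89 ± 0.18), and PSME2 likewise (1.08 ± 0.20 and 0.78 ± 0.20), all 4 called; MM1S and OPM2 gave 0.064 ± 0.17 and -0.30 ± 0.20. Of the constitutive subunits PSMB5 was lowest in MM1S, at 48.4 and 42.7 CPM beside 81.5 and 89.5 in H929 and 168 and 102 in OPM2 (MM1S against OPM2 -1.57 ± 0.20, adjusted p = 6.76e-06; H929 against MM1S 0.91 ± 0.20; H929 against OPM2 -0.66 ± 0.19). PSMB6 was lower in H929 than in MM1S (-0.86 ± 0.19) and than in OPM2 (-0.46 ± 0.19, but 0.035 without replicate 1) and gave 0.40 ± 0.19 between MM1S and OPM2, and PSMB7 gave -0.36 ± 0.16, -0.55 ± 0.16 and -0.19 ± 0.16 in the same order of comparisons. PSMD2 was lowest in H929 (-1.41 ± 0.11 against MM1S), PSMD7, a lid subunit, was lowest in MM1S, at 123 and 124 CPM beside 227.0 and 249.6 in H929 and 504.6 and 379.8 in OPM2 (-1.84 ± 0.13 against OPM2), and PSMB1 was lower in H929 (-1.72 ± 0.16) and MM1S (-1.32 ± 0.16) than in OPM2. PSMA1 (-1.02 ± 0.11), PSMB2 (-0.91 ± 0.11), PSMD11 (-0.86 ± 0.12), PSMD10 (-0.68 ± 0.10), PSMD5 (-1.28 ± 0.16) and PSMF1 (-0.83 ± 0.11) were lower in H929 than in MM1S. Without OPM2 empty vector replicate 1 the other differences of H929 from OPM2 were PSME1 1.33, PSME2 1.29, PSMB5 -0.22, PSMB7 -0.18 and PSMB1 -1.36, PSMB5 and PSMB7 no longer called, and those of MM1S from OPM2 PSME1 0.51, PSME2 0.21, PSMB5 -1.12, PSMB6 0.90, PSMB7 0.18, PSMD7 -1.58 and PSMB1 -0.96.

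Over the 9 group means of log2 CPM, the genes most alike in pattern to PSMB8 among all genes tested were IFI35 (Pearson r = 0.966), TAP2 (0.965), CD5L (0.954), ECE1 (0.948) and SHISA5 (0.948), and PSME1 reached 0.926 and PSMB9 0.897. Those most alike to PSMB9 were PPCS (0.993), SMURF1 (0.992), ACSL5 (0.991), IRF1 (0.990) and SP110 (0.988), and those most alike to PSMB10 were LYRM2 (0.926), GAD1 (0.923), GNB2 (0.914), SLC35C2 (0.897) and ACAA1 (0.897). PSMB8 and its constitutive partner PSMB5 gave r = -0.0078. The 9 points share 3 lines, 2 libraries each and in OPM2 the control, and the correlations are a description with no p. Among the 42 genes the range over all libraries was widest for PSMB9, from 4.58 CPM in an untreated OPM2 library to 134.0 CPM in an H929 knockout library (29.2-fold), followed by PSME2 (7.22-fold) and PSMB8 (5.43-fold), and narrowest for PSME3, another activator (1.49-fold).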

How the data were processed

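RNA of 18 libraries was sequenced after a TruSeq RNA preparation, per the labels' protocols. The authors deposited raw counts per gene, 1 column per library with no normalization; Subread, featureCounts and limma and the build GRCh38 are named per the submitters' processing notes, and the sources used here do not give versions, strand setting or annotation. The authors also deposited log2 FPKM values, with each control group merged in 1 column; the sources used here do not say how, and the FPKM values were used only to compare levels between genes. The libraries held between 11.8 and 24.19 M counts, and 385 of 28395 genes without a symbol (0.0122 to 0.0276% of counts) were kept by their Entrez number.

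Counts were tested with edgeR 4.0.16 (R 4.3.3): filterByExpr by group, TMM scaling, and 1 robust quasi-likelihood fit of all 18 libraries with a coefficient per group and 9 residual degrees of freedom, over 14571 genes. A gene is called where its p, adjusted over all genes tested (Benjamini-Hochberg), is below 0.05; every adjusted p in the text is from this test unless named otherwise, and the standard error (SE) is the log2 fold change over the square root of F. No exact permutation test was run, since 2 libraries against 2 allow no p under 0.333. The script was tested on simulated counts first. The alternatives were other scalings, filters, tests (DESeq2 1.42.0, limma-voom in limma 3.58.1) and sets of libraries.

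Knockout columns carry other numbers than the sample titles and were assigned to their group only. The members, gene lists and motifs were chosen with earlier results of these data known. Named throughout were PSMB5 to PSMB10, PSME1 and PSME2, up to 10 called members with the smallest p in a comparison, the members with the highest and lowest level per length in a class, up to 4 genes of each list with the smallest p (some are not reported here), and the 5 genes most alike to PSMB8, PSMB9 and PSMB10; PSMA4 in H929, TAP1 in MM1S, PSMD5 and PSME4 in groups where they were not called, and the genes called against untreated cells were added after their values were seen. Lengths and overlaps came from GENCODE v29 exons and promoters from RefSeq, both matched by symbol.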

Additional observations from a re-analysis of the deposited data

Results flagged for a closer look

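The response to IKZF1 knockout differed between cell lines for named genes, by edgeR's test of the difference itself (an interaction of line and knockout). Values are log2 differences of the log2 fold changes. The comparisons of lines together called 13 of the 42 proteasome genes. The share of all genes called in any of them is not given, so that count is not by itself a result about the 42. Between H929 and MM1S 5 were higher (6.94% of all genes tested) and 2 lower (8.91%). Between H929 and OPM2 9 were higher (6.51%) and 2 lower (6.14%). Between MM1S and OPM2 0 were higher (11.8%) and 1 lower (8.94%). Positive values mean that the change was more upward in the line named first. Between H929 and MM1S, the immunoproteasome subunit PSMB8 differed by 1.01 ± 0.29 (SE, adjusted p = 0.0307) and the PA28 gene PSME2 by 1.08 ± 0.29 (SE, adjusted p = 0.0183). The alpha ring genes PSMA2 and PSMA4 differed by 0.63 ± 0.18 (SE, adjusted p = 0.027) and 0.72 ± 0.22 (SE, adjusted p = 0.0361), and the inhibitor gene PSMF1, which fell in MM1S, by 0.62 ± 0.15 (SE, adjusted p = 0.0102). PSMD1 and PSME4 were the 2 with negative differences, at -0.64 ± 0.16 (SE, adjusted p = 0.012) and -0.68 ± 0.20 (SE, adjusted p = 0.0341). PSMF1 was called whichever library was left out, and without MM1S empty vector replicate 1 it was the only one of the 7 called.

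Between H929 and OPM2, all 3 immunoproteasome subunits and both PA28 genes differed. PSMB8 gave 1.75 ± 0.30 (SE, adjusted p = 0.00285), PSMB9 1.43 ± 0.39 (SE, adjusted p = 0.0314) and PSMB10 1.51 ± 0.30 (SE, adjusted p = 0.00633). PSME1 gave 1.02 ± 0.25 (SE, adjusted p = 0.0183) and PSME2 1.68 ± 0.29 (SE, adjusted p = 0.00287). Of the alpha ring, PSMA2 gave 1.02 ± 0.18 (SE, adjusted p = 0.00325), PSMA3 0.81 ± 0.19 (SE, adjusted p = 0.0175), PSMA4 0.94 ± 0.22 (SE, adjusted p = 0.0155) and PSMA5 0.80 ± 0.22 (SE, adjusted p = 0.0293). PSMD5 and PSME4 differed in the other direction, by -1.15 ± 0.23 (SE, adjusted p = 0.00654) and -1.21 ± 0.21 (SE, adjusted p = 0.00287). Without OPM2 empty vector replicate 1 these differences stayed called except that of PSMB9. With the 8 compared libraries fitted alone none of the 42 genes was called between H929 and OPM2. Against untreated cells, IKZF1 knockout in OPM2 gave PSMB8 -0.063, PSMB9 0.46, PSMB10 0.27, PSME1 -0.070 and PSME2 0.18. It gave 0.11, 0.42, 0.23 and 0.035 for PSMA2, PSMA3, PSMA4 and PSMA5, 0.39 for PSMD5 and 0.67 for PSME4. The differences from H929 were not tested with that control.

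Between MM1S and OPM2, PSMF1 differed by -0.67 ± 0.15 (SE, adjusted p = 0.00711), with the greater fall in MM1S. The comparisons with OPM2 share its empty vector libraries.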

How the results depend on the processing

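Counts are of the 42 genes called in either direction. The share of all genes called changes with the fit too, and it is not given beside most counts of this section. Under lenalidomide 5.76% of all genes were higher and 4.58% lower in the fit of all libraries. With the compared libraries alone it was 23.4% and 21.9%. A count here is therefore not by itself a result about the 42 genes. Leaving out 1 library at a time gave 1 to 14 in H929, 1 to 23 in MM1S, 9 to 36 and 11 to 35 for IKZF1 and IKZF3 knockout in OPM2, 1 to 7 under lenalidomide, 15 to 35 for the mean IKZF1 effect and 27 to 39 for empty vector against untreated cells. The same gave 20 to 31 for H929 against MM1S, 25 to 33 for H929 against OPM2, 16 to 30 for MM1S against OPM2, 1 to 16, 6 to 33 and 1 to 32 for the differences of the IKZF1 effect (H929 and MM1S, H929 and OPM2, MM1S and OPM2) and 0 to 35 for lenalidomide against IKZF1 knockout. The highest count came without 1 of the 2 OPM2 empty vector libraries in all of these but H929 against OPM2, and the cause of the other shifts was not tested.

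With only the compared libraries fitted the counts were 6 in H929, 24 in MM1S, 0 and 0 for the OPM2 knockouts, 14 under lenalidomide, 13 for the mean effect, 0 for empty vector against untreated cells, 37, 12 and 10 for the lines, and 15, 0 and 0 for the differences of the IKZF1 effect; such fits have fewer samples to estimate the spread. With no filter on low counts they were 5 in H929, 2 under lenalidomide, 18 and 7 for the differences of the IKZF1 effect of H929 and MM1S from that of OPM2, and 11 for lenalidomide against IKZF1 knockout. The DESeq2 Wald test gave 5 in H929, 2 under lenalidomide, 5 for the difference of the IKZF1 effect between MM1S and OPM2 and 7 for lenalidomide against IKZF1 knockout, and upper quartile scaling gave 2 for the difference of the IKZF1 effect between MM1S and OPM2. Other scalings shifted the values of the proteasome genes by a median of at most 0.0607 log2 in either direction, and 0 called members changed sign under them.

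Replicate numbers were not shown to pair libraries: differences between control replicates 1 and 2 correlated at -0.076 to 0.12 across groups, and knockout libraries carry no number of their own. In the 8 control libraries a fit with the replicate block gave 21 genes for empty vector against untreated OPM2 and one without it 25, a fit added after seeing the data.

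With untreated cells as control the counts were 6 for IKZF1 and 4 for IKZF3 knockout, and signs turned. After IKZF1 knockout this held for PSMA3 (0.42), PSMA5 (0.035), PSMA7 (0.20), PSMB5 (0.21), PSMB6 (0.55), PSMB7 (0.30), PSMB10 (0.27), PSMC3 (0.21), PSMD8 (0.15), PSMD13 (0.25) and PSME2 (0.18). After IKZF3 knockout it held for PSMA3 (0.20), PSMA7 (0.10), PSMB3 (0.17), PSMB5 (0.074), PSMB6 (0.33), PSMB7 (0.18), PSMC4 (0.13), PSMC5 (0.050), PSMD3 (0.076), PSMD8 (0.15) and PSME2 (0.48). In H929 against OPM2, leaving out 1 library at a time gave -0.81 to 0.035 for PSMB6 and -0.92 to 0.049 for PSMB10, positive without OPM2 empty vector replicate 1. Over all named genes and alternatives, 3829 values kept their direction and side of the threshold, 325 lost the call, 50 gained it and 24 turned.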
